A study of Homo sapiens with 4 samples.

Results

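The genes described are 9 carriers that move nucleosides and drugs across membranes in human embryonic stem cells. They are the 4 equilibrative nucleoside transporters SLC29A1 to SLC29A4 and the 5 ABC efflux pumps ABCB1, ABCG2, ABCC1, ABCC4 and ABCC5. They were taken by symbol from the 60483 gene identifiers of the series, and all 9 had enough reads to be tested. RNA came from H9 cells (WA09), a human embryonic stem cell line in wide use, in 2 libraries of SLC35F2 knockout (KO) cells and 2 libraries of control H9 cells. The KO libraries held 27824693 and 36943597 reads assigned to genes, and the control libraries held 37978705 and 32423108. The sources used here do not give how the knockout was made, whether it is a single clone or what the control cells received. They also do not tell whether the libraries within a group are separate cultures, and a p-value here then covers only the spread among these libraries, possibly a technical one.

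Equilibrative nucleoside transporters let nucleosides, and drugs built like them, pass a membrane down their concentration gradient. ABC pumps use ATP to push drugs, conjugates and nucleotide analogues out of the cell. The protein missing by label, SLC35F2, is itself a carrier, known as the route by which the compound YM155 enters cells. The comparison of KO with control cells therefore shows whether RNA of other entry and exit routes differed when this route was targeted.

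In brief, SLC29A1 dominated the entry carriers and ABCC1 and ABCC5 dominated the pumps in all 4 libraries, and none of the 9 genes passed the test between KO and control cells. ABCG2 had the largest difference, with a level 3.25-fold lower in KO cells in the fit, and was the only one of the 9 with an unadjusted p under 0.05. Such a p was reached by 4.06% of all genes tested. ABCG2 was lower in both KO libraries, as were 16.3% of all genes tested. SLC29A1 was the only other gene whose KO and control values did not overlap, and it was higher in both KO libraries, as were 15.8% of all genes tested. With library size as the only scaling the SLC29A1 values overlapped and those of ABCC4 did not. ABCC4 was then lower in both KO libraries, as were 21.3% of all genes tested under that scaling. ABCB1, SLC29A4, ABCC1, ABCC4 and ABCC5 differed between the KO libraries by more than between the groups, most widely ABCB1 (8.08-fold) and SLC29A4 (2.72-fold).

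SLC35F2 RNA was lower in both libraries labelled KO, at 12.1 and 9.64 CPM (reads of a gene scaled to the size of its library) in KO cells against 41.0 and 27.1 CPM in control cells. The fitted log2 fold change was -1.65 (95% confidence interval -2.46 to -0.85), and the gene was not called after adjustment over all genes (edgeR quasi-likelihood adjusted p = 0.58). It was called by DESeq2 (adjusted p = 0.0236) and by edgeR with the replicate number as a block (adjusted p = 0.00736). The log2 fold change was -1.81 without KO 1 and -1.497 without KO 2. Those fits take the spread of the single KO library from the controls. The pluripotency factors POU5F1 and SOX2 were present in every library, with POU5F1 at 400 and 226 CPM in KO cells and 282 and 306 CPM in control cells. NANOG, another of these factors, had 46.2 and 19.1 CPM in KO cells against 61.2 and 64.7 CPM in control cells. Of 8 stem cell markers edgeR called 0, and 1, NANOG, had an unadjusted p under 0.05. The 5 trophoblast markers summed to 18.1 and 19.2 CPM in KO cells against 14.6 and 26.7 CPM in control cells. KRT7, a keratin of simple epithelia, was the largest part of that sum in every library. It had 489 and 566 reads in KO cells and 516 and 492 reads in control cells. Scaled, these were 17.8 and 16.5 CPM in KO cells against 13.7 and 13.8 CPM in control cells, higher in both KO libraries. The placental hormone gene CGA had 0 reads in all libraries. GATA2, a transcription factor of trophoblast and blood, had 3 and 5 reads in KO cells and 19 and 305 reads in control cells. Its log2 fold change was -5.08 in edgeR's quasi-likelihood fit (unadjusted p = 0.0107, adjusted p = 0.997) and -1.93 without control 2, and DESeq2 called it (adjusted p = 0.000447), as did edgeR with the replicate block (adjusted p = 0.00338). Control 2 also stood apart in TFAP2A, with 5 and 33 reads in KO cells against 7 in control 1 and 118 in control 2. HAND1, a mesoderm marker, had 0 and 3 reads in KO cells, 1 in control 1 and 79 in control 2. GATA6, an endoderm marker, had 5 and 0 reads in KO cells, 3 in control 1 and 37 in control 2. KO 2 stood apart in other markers. The neuroectoderm marker OTX1 had 16 and 226 reads in KO cells and 41 and 47 reads in control cells. FOXA2, an endoderm marker, had 23 and 2 reads in KO cells and 36 and 28 reads in control cells. EOMES, another, had 33 and 1 reads in KO cells and 39 and 84 reads in control cells. The stem cell marker DNMT3B had 1548 and 661 CPM in KO cells and 1741 and 1301 CPM in control cells. The 5 mesoderm markers summed to 155 and 132 CPM in KO cells against 283 and 299 CPM in control cells, nearly all of it KDR. The 5 endoderm markers summed to 6.28 and 3.65 CPM in KO cells against 6.99 and 9.39 CPM in control cells. The sums for the 5 neuroectoderm markers were 528 and 926 CPM in KO cells and 465 and 779 CPM in control cells. Nearly all of this was NES, at 525 and 918 CPM in KO cells and 462 and 776 CPM in control cells. For the 5 fibroblast markers the sums were 569 and 1112 CPM in KO cells and 541 and 873 CPM in control cells. Nearly all of these came from THY1, COL1A1 and COL1A2. COL1A1 had 46.7 and 551 CPM in KO cells and 128 and 300 CPM in control cells. DCN had 2 reads in KO 1 and 0 elsewhere.

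Levels of different genes can be compared only per length, so reads were also divided by the merged exon length of each gene. On this scale of CPM per kilobase SLC29A1 stood first in every library, with a mean over the 4 libraries of 56.8 and a range from 45.6 to 68.6. It lay above 96.5% of the genes tested. SLC29A2 followed at a mean of 13.5 CPM per kilobase and ABCC1 at 9.95, and the ranges of these neighbours overlapped. ABCC5 came next in all 4 libraries, at a mean of 5.20 CPM per kilobase, with a range that met neither neighbour. SLC29A3 (2.64), ABCC4 (2.49) and SLC29A4 (2.20) had overlapping ranges and changed places between libraries. ABCG2, at 0.417 CPM per kilobase, and ABCB1, at 0.187, were the lowest pair in every library, also with overlapping ranges. The step from SLC29A4 down to ABCG2 was 5.27-fold between means, and the step from SLC29A1 down to SLC29A2 was 4.196-fold.

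**Figure D1:**
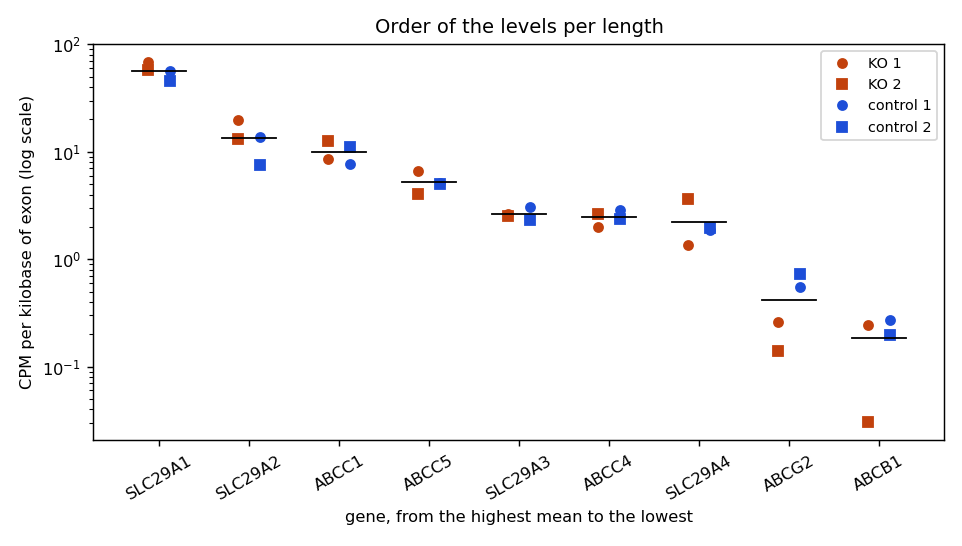
Level of each of the 9 genes in CPM per kilobase of merged exon (log axis), ordered by the mean over 4 libraries (black line), with KO libraries in orange to the left and control libraries in blue to the right. SLC29A1 lies above all other genes in each library, and ABCG2 and ABCB1 lie below all others.

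For the most abundant gene and the pair of least abundant ones, RefSeq promoter windows on GRCh38.p14 are shown, to set the sequence at a start site beside the level. A window holds 250 bases before a start and 50 after it. RefSeq windows were matched by symbol for 7 of the 9 genes, with 13 windows in all. Where a gene has several, the one with the most motif matches is printed, and counts per gene do not tell which start was used. Capitals mark matches, on either strand, to GGGCGG (the GC box bound by SP1), ACGTG (the core of hypoxia response elements), GCGTG (the core of xenobiotic response elements) or TGACNNNGC (a core of antioxidant response elements). No match overlapped a match to another motif in these windows, and CACGTG counts once on each strand.
SLC29A1, chr6:44219365-44219664, plus strand: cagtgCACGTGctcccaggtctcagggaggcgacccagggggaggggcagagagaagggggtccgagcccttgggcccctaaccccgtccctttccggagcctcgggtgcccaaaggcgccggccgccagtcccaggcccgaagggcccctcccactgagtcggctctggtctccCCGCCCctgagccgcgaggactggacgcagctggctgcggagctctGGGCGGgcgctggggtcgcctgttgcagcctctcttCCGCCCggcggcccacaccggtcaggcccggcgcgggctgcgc
ABCG2, chr4:88158810-88159109, minus strand: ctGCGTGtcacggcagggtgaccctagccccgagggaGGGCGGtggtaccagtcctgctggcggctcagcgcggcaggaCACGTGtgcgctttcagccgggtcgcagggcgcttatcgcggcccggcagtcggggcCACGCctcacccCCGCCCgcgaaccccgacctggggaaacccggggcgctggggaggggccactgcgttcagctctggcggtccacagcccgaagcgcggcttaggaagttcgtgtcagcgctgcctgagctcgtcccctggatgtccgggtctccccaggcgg
ABCB1, chr7:87600835-87601134, minus strand: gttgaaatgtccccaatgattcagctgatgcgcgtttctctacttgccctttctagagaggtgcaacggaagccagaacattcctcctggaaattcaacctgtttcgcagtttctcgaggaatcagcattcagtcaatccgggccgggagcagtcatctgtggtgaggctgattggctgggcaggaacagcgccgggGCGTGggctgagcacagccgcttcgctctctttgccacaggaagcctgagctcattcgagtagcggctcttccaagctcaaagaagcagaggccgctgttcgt

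The SLC29A1 window had 3 GC boxes and a single CACGTG, and 74.7% of its bases were G or C. The ABCG2 window had 2 GC boxes, 2 matches to GCGTG and a single CACGTG, with 72.3% G or C. The ABCB1 window had 1 match to GCGTG and no GC box, with 55.3% G or C, and the other ABCB1 window held no match to the 4 motifs. Among 35116 RefSeq windows, 44.95% held a GC box, 21.41% held ACGTG, 36.54% held GCGTG and 13.35% held TGACNNNGC. CpG pairs numbered 27 in the SLC29A1 window, 33 in the ABCG2 window and 16 in the ABCB1 window, against a median of 14 over all windows. All 3 windows shown were thus above the median in CpG pairs, ABCB1 only just (percentile 52.5). They were picked for the most motif matches, and the 35116 windows were not, so this comparison cannot set the genes apart. The other windows of these genes ranged more widely, with 3 and 11 CpG pairs in the poorest ABCG2 windows, 1 in the other ABCB1 window and 34 in the other SLC29A1 window.

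SLC29A1 encodes ENT1, the plasma membrane carrier through which adenosine and drugs such as gemcitabine and cytarabine enter cells. The gene (ENSG00000112759.15) lies on chromosome 6 from 44219505 to 44234151 on the plus strand of GRCh38. It had 8320 and 8625 reads in KO cells and 9330 and 7142 reads in control cells, or 302 and 252 CPM in KO cells against 247 and 201 CPM in control cells. Both KO libraries were above both controls, by a small margin between KO 2 and control 1. The means were 277 ± 35.5 CPM in KO cells and 224 ± 32.7 CPM in control cells (SD, n = 2 each), and the fitted log2 fold change was 0.31 with an interval from -0.29 to 0.91. With library size as the only scaling, KO values of 299 and 233 CPM overlapped the control values of 246 and 220 CPM. Under that scaling the median over all genes tested was -0.097 on the log2 scale, against 0.029 with TMM factors, and SLC29A1 had a log2 fold change of 0.19.

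SLC29A2 encodes ENT2, which carries nucleobases as well as nucleosides. On chromosome 11 (ENSG00000174669.10, 66362521 to 66372214, minus strand) it had 1481 and 1219 reads in KO cells and 1408 and 735 reads in control cells. Its levels were 53.8 and 35.6 CPM in KO cells and 37.3 and 20.7 CPM in control cells, so KO 2 lay just below control 1 and the groups overlapped. The means, 44.7 ± 12.9 CPM in KO cells and 28.97 ± 11.7 CPM in control cells (SD, n = 2 each), gave a log2 fold change of 0.62 with an interval from -0.22 to 1.46. Among the 9 genes this was the largest positive fold change. The fold change was 1.12 without control 1 and 0.26 without control 2. The 2 controls differed 1.804-fold for SLC29A2. Of the 15054 tested genes that averaged 1 CPM or more, 10.5% differed more between the controls.

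SLC29A3 encodes ENT3, a carrier of intracellular membranes such as those of lysosomes. It lies on chromosome 10 (ENSG00000198246.7, 71319258 to 71381423, plus strand) and had 14.3 and 13.9 CPM in KO cells and 16.6 and 12.7 CPM in control cells, from 394 and 475 reads in KO cells and 627 and 453 reads in control cells. Both KO values lay between the controls. The log2 fold change was -0.06, with an interval from -0.85 to 0.74, and its sign turned without control 1 (0.16). The KO libraries differed 1.03-fold, and 94.5% of those 15054 genes differed more between them. SLC29A3 shares 2132 bases of its annotated span with AL359183.1 on the same strand. AL359183.1 had 40 and 12 reads in KO cells and 45 and 49 reads in control cells, and its part in the SLC29A3 values was not tested.

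SLC29A4 encodes ENT4, also called the plasma membrane monoamine transporter, which carries organic cations and, at acid pH, adenosine. It lies on chromosome 7 (ENSG00000164638.9, 5274369 to 5306870, plus strand). KO 1 had 215 reads or 7.81 CPM and KO 2 had 726 reads or 21.2 CPM, while control 1 had 408 reads or 10.8 CPM and control 2 had 400 reads or 11.2 CPM. The KO libraries thus lay on either side of a close control pair. They differed 2.72-fold, and 10.6% of the 15054 tested genes that averaged 1 CPM or more differed more between the KO libraries. The fitted log2 fold change of 0.40 (interval -0.69 to 1.498) turned to -0.49 without KO 2 and was 0.96 without KO 1. The gene shares 81 bases of its annotated span with TNRC18 on the opposite strand, and TNRC18 had 41 and 411 reads in KO 1 and KO 2 against 125 and 193 reads in the controls. TNRC18 was thus also lowest in KO 1 and highest in KO 2, and its part in the SLC29A4 values was not tested.

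**Figure D2:**
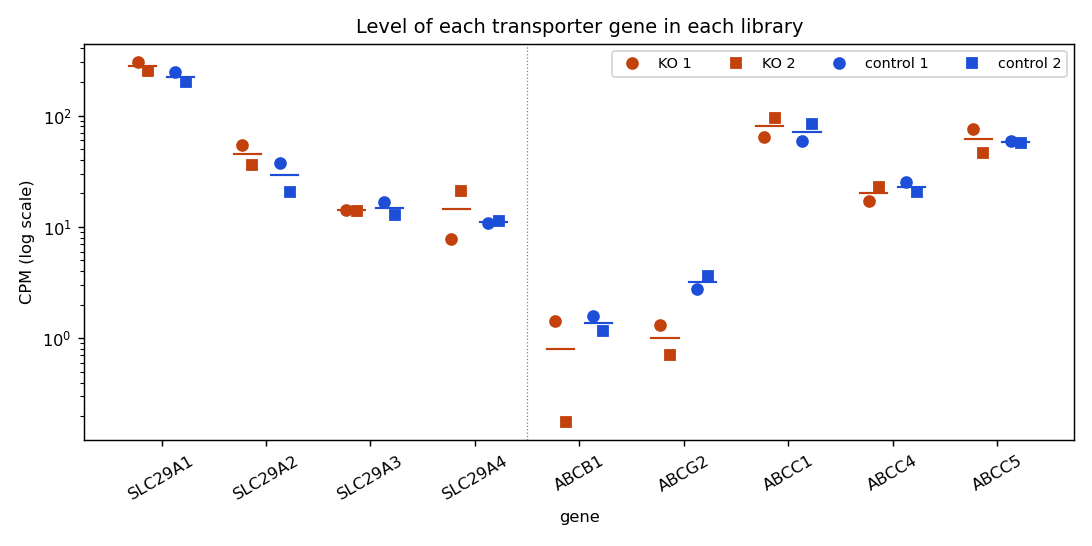
Level of each gene in CPM (log axis) in every library, with KO in orange left of control in blue and short lines at group means of 2 libraries. ABCG2 values of KO cells lie below those of control cells, the KO values of SLC29A4 and ABCB1 are spread widely, and SLC29A3 differs little between libraries.

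ABCG2 encodes the breast cancer resistance protein, a pump for mitoxantrone, topotecan and urate whose activity is used to mark side-population stem cells. It lies on chromosome 4 (ENSG00000118777.9, 88090264 to 88231322, minus strand). It had 36 and 24 reads in KO cells and 104 and 130 reads in control cells, or 1.31 and 0.701 CPM in KO cells against 2.75 and 3.66 CPM in control cells. Exact Poisson intervals, which cover counting error only, ran from 0.916 to 1.81 CPM in KO 1 and from 0.449 to 1.04 CPM in KO 2, against 2.25 to 3.34 CPM in control 1 and 3.05 to 4.34 CPM in control 2. Both KO libraries were below both controls, and no KO interval reached a control interval. The means were 1.0045 ± 0.429 CPM in KO cells and 3.20 ± 0.638 CPM in control cells (SD, n = 2 each). The log2 fold change was -1.70 ± 0.59 (SE), with an interval from -3.03 to -0.37.

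In edgeR's quasi-likelihood fit across all genes ABCG2 had an unadjusted p of 0.0182, which ranked 246 among 19027 genes tested, and it was not called (adjusted p = 0.997). An unadjusted p under 0.05 was reached by 4.06% of all genes tested. It stayed lower in KO cells in all 13 alternative settings, with log2 fold changes from -2.17 without KO 1 to -1.10 with quantile normalisation, and it was called in none. The smallest adjusted p was 0.05 without KO 1, just above the threshold before rounding, a fit that takes the spread of the single KO library from the controls. Control 1 was the lower control, and without it the log2 fold change was -1.87. Without control 2, the highest library for ABCG2 and for GATA2, HAND1, TFAP2A and GATA6, it was -1.48. The summed mesoderm markers (nearly all KDR), the summed endoderm markers, NANOG and GATA2 were also lower in both KO libraries. All 3 mesoderm markers tested, TBXT, MIXL1 and KDR, were lower in both KO libraries (100%, beside 16.3% of all genes tested). Of these 3 edgeR called 0, and 2, MIXL1 and KDR, had an unadjusted p under 0.05. KDR had a log2 fold change of -1.01 (edgeR unadjusted p = 0.00365). Of the 4 endoderm markers tested, 0 were lower in both KO libraries and all 4 overlapped. Among 8 stem cell markers 1 was lower and 1 higher in both KO libraries (12.5% each). Among 4 trophoblast markers tested 1 was lower and 1, KRT7, was higher (25% each). Of 5 neuroectoderm markers 0 were lower and 1 was higher (20%), and all 4 fibroblast markers tested overlapped. These shares stand beside 16.3% of all genes tested lower and 15.8% higher in both KO libraries. The part of these markers in the ABCG2 values was not tested. In bulk RNA, fewer cells of a type and less RNA per cell cannot be told apart.

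ABCB1 encodes P-glycoprotein, the multidrug pump that expels many hydrophobic drugs. On chromosome 7 (ENSG00000085563.13, 87503633 to 87713323, minus strand) it had 39 and 6 reads in KO cells and 60 and 41 reads in control cells. The levels were 1.42 and 0.175 CPM in KO cells and 1.59 and 1.15 CPM in control cells. KO 2 stood alone, 8.08-fold below KO 1, while KO 1 lay between the controls. The counting interval of KO 2, from 0.0643 to 0.382 CPM, did not reach that of KO 1, from 1.01 to 1.94 CPM. A larger ratio between the KO libraries was seen in 1.65% of the genes that averaged 1 CPM or more. KO 2 was also the lowest library for the markers FOXA2, EOMES and DNMT3B and the highest for OTX1. The part of these markers in the ABCB1 values was not tested. The fitted log2 fold change of -0.87 (interval -2.68 to 0.93) rested on KO 2: it was 0.046 without KO 2 and -2.93 without KO 1 (edgeR adjusted p = 0.0572 without KO 1). The span of ABCB1 overlaps RUNDC3B on the other strand, which had 12 and 22 reads in KO cells and 28 and 25 reads in control cells.

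ABCC1 encodes MRP1, which exports glutathione conjugates and many anticancer drugs. It was the most abundant pump per length. On chromosome 16 (ENSG00000103222.17, 15949577 to 16143074, plus strand) it had 64.4 and 95.2 CPM in KO cells and 58.7 and 83.1 CPM in control cells, from 1772 and 3259 reads in KO cells and 2219 and 2957 reads in control cells. In each group the library numbered 2 was the higher, and the groups overlapped. The log2 fold change was 0.17 with an interval from -0.54 to 0.88, which turned to -0.049 without control 1 and -0.14 without KO 2.

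ABCC4 encodes MRP4, an exporter of cyclic nucleotides, prostaglandins and nucleoside monophosphate analogues. It lies on chromosome 13 (ENSG00000125257.12, 95019829 to 95301475, minus strand), with 17.2 and 22.9 CPM in KO cells and 25.04 and 20.7 CPM in control cells from 474 and 785 reads in KO cells and 946 and 735 reads in control cells. KO 2 lay between the controls and KO 1 below both. With library size as the only scaling both KO values, 17.04 and 21.2 CPM, lay below both control values, 24.9 and 22.7 CPM, beside 21.3% of all genes tested under that scaling. The log2 fold change was -0.19 (interval -0.93 to 0.56), and 0.016 without KO 1.

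ABCC5 encodes MRP5, which also exports cyclic nucleotides and nucleotide analogues. On chromosome 3 (ENSG00000114770.15, 183919934 to 184018015, minus strand) it had 75.5 and 46.5 CPM in KO cells and 59.2 and 56.9 CPM in control cells, from 2079 and 1590 reads in KO cells and 2236 and 2023 reads in control cells. The KO libraries lay on either side of the controls, which were 1.04-fold apart. The log2 fold change of 0.07 had an interval from -0.63 to 0.77. It was negative with library size only (-0.044), with quantile normalisation (-0.069) and without KO 1 (-0.31).

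**Figure D3:**
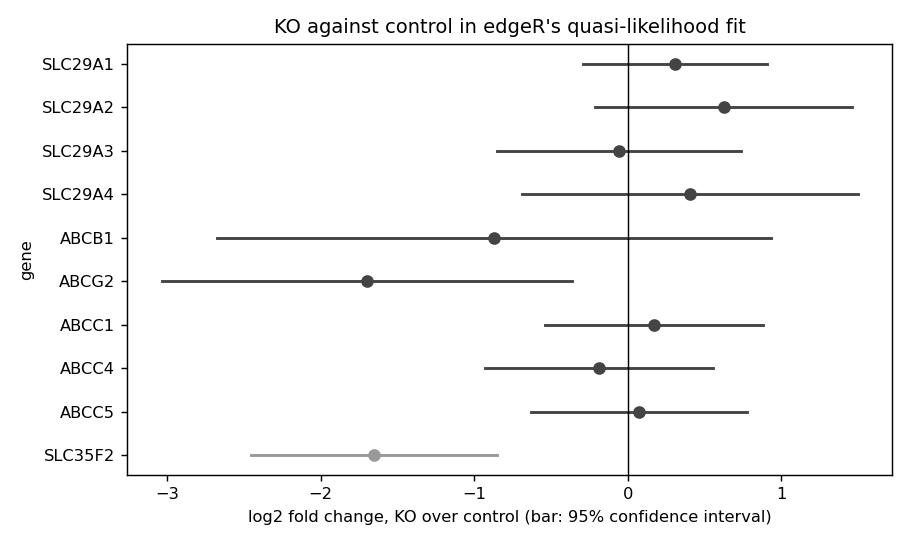
Log2 fold change of KO over control for the 9 genes and SLC35F2, with 95% confidence intervals from edgeR's quasi-likelihood fit. Only the intervals of ABCG2 (-3.03 to -0.37) and SLC35F2 (-2.46 to -0.85) do not include 0, and no gene shown passed the adjusted threshold in that fit.

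The 9 carriers were set beside all genes tested. In edgeR's quasi-likelihood test 0 of 9 were called, beside 5 (0.0263%) of the 19027 genes tested. At that share 9 genes would rarely hold a call, so this count cannot tell them from the background. In the same test 1 of 9 had an unadjusted p under 0.05, beside 4.06% of all genes tested. DESeq2, limma-voom and each of the other alternative settings also called 0 of the 9. Both KO libraries lay above both controls for SLC29A1, beside 15.8% of all genes tested. They lay below both controls for ABCG2, beside 16.3% of all genes tested, and the other 7 overlapped. The median log2 fold change was 0.36 over the 4 nucleoside transporters, -0.19 over the 5 pumps and 0.03 over all genes tested. The biological coefficient of variation over all genes was 36.3%, and the interval of SLC29A1, the narrowest of the 9, spanned folds from 0.816 to 1.88.

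Summed per length, the nucleoside transporters had 92.3 and 76.5 CPM per kilobase in KO cells and 74.6 and 57.4 in control cells. The KO 2 sum was close to that of control 1. SLC29A1 made up 74.3% and 74.8% of the sum in KO cells and 75.1% and 79.3% in control cells. The pumps summed to 17.6 and 19.5 CPM per kilobase in KO cells and 16.6 and 19.3 in control cells, and these ranges overlapped. The ABCC genes provided 97.1% and 99.1% of the pump sum in KO cells and 95.1% and 95.2% in control cells. ABCC1 alone provided 48.3% and 64.6% in KO cells and 46.6% and 57.0% in control cells.

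**Figure D4:**
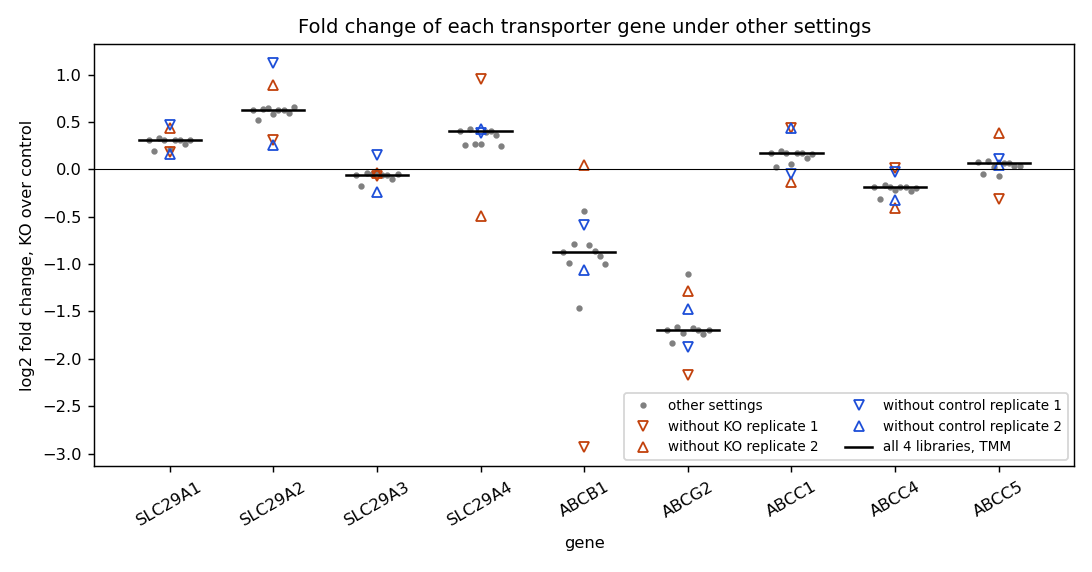
Log2 fold change of each gene with all 4 libraries (black line), with 1 library left out (triangles) and under the other settings (grey points). ABCG2 lies below 0 and SLC29A1 and SLC29A2 lie above 0 under every setting, whereas SLC29A3, SLC29A4, ABCB1, ABCC1, ABCC4 and ABCC5 cross 0 when a library is left out.

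Genes related to these carriers were grouped into 6 lists, and edgeR, DESeq2 and limma-voom each called 0 genes of every list over all genes. In edgeR 2 genes of the drug uptake list, SLC15A1 and SLC47A1, and 1 of the adenosine list, DPP4, had an unadjusted p under 0.05, and in the other lists 0 did. These were 3 of 100 genes tested in the 6 lists (3%), beside 4.06% of all genes tested. The counts of non-overlapping genes in each list stand beside 15.8% of all genes tested higher and 16.3% lower in both KO libraries, and no difference from these shares was tested. The concentrative nucleoside transporters, which drive uptake with the sodium gradient, had few or no reads. SLC28A1 had 9 and 2 reads in KO cells and 0 and 5 reads in control cells. SLC28A2 had 6 and 0 reads in KO cells and 2 and 6 reads in control cells, and SLC28A3 had 1 read in KO 1 and 0 elsewhere. None of these 3 genes had enough reads to be tested, whereas all 4 SLC29 genes did. Of the 11 nucleoside, nucleotide and SLC35F carriers listed, 8 were tested, 1 (12.5%, beside 15.8% of all genes) was higher in both KO libraries and 0 were lower. That one was SLC35F5, a relative of SLC35F2, with 29.7 and 28.6 CPM in KO cells and 22.8 and 20.1 CPM in control cells (log2 fold change 0.44, interval -0.24 to 1.12). SLC35F3 had 1.38 and 2.02 CPM in KO cells and 1.85 and 2.05 CPM in control cells. SLC25A33 and SLC25A36, which encode mitochondrial carriers of pyrimidine nucleotides, had log2 fold changes of -0.11 and 0.03, and that of SLC25A36 turned to -0.097 with library size only.

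Of 17 other ABC and multidrug genes, 12 were tested, 2 (16.7%, beside 16.3% of all genes) were lower in both KO libraries and 0 were higher, with a median log2 fold change of 0.04. ABCA3, a lipid transporter, had 24.96 and 37.0 CPM in KO cells and 18.2 and 38.6 CPM in control cells. ABCC2, the canalicular relative of ABCC1, had 0.727 and 0.351 CPM in KO cells and 0.768 and 0.844 CPM in control cells. ABCC8, a subunit of ATP-sensitive potassium channels, had 4.25 and 1.96 CPM in KO cells and 3.52 and 6.21 CPM in control cells.

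Of 25 other drug uptake carriers listed, 21 were tested, and 7 of them (33.3%) were lower in both KO libraries, beside 16.3% of all genes tested, while 1 was higher (4.76%). The list also holds the exporters SLC47A1, which is among those 7, and SLC47A2, which had too few reads to be tested. The median log2 fold change was -0.34. SLC15A1, the peptide transporter that also carries beta-lactam antibiotics, had 0.981 and 0.438 CPM in KO cells and 2.04 and 4.81 CPM in control cells (log2 fold change -2.30, interval -3.92 to -0.68). Without KO 1 its log2 fold change was -2.935, in a fit that takes the spread of the single KO library from the controls. SLC47A1, the proton-coupled exporter of organic cations named MATE1, had 1.199 and 1.52 CPM in KO cells and 2.94 and 3.94 CPM in control cells (log2 fold change -1.32, interval -2.54 to -0.11). SLC22A3, an organic cation transporter, had 0.981 and 0.964 CPM in KO cells and 2.22 and 1.97 CPM in control cells. The copper and cisplatin importer SLC31A1, an abundant member, had 86.8 and 71.9 CPM in KO cells and 92.0 and 89.6 CPM in control cells, lower in both KO libraries, and the thiamine carrier SLC19A2 had a log2 fold change of 0.12, which was -0.0016 with library size only.

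Nucleosides that enter through these carriers are phosphorylated or degraded by salvage enzymes. All 32 salvage genes were tested, and 6 (18.8%) were higher in both KO libraries, 6 (18.8%) were lower and 20 overlapped, beside 15.8% higher and 16.3% lower of all genes, with a median log2 fold change of 0.14. APRT, which salvages adenine, had 192 and 189 CPM in KO cells and 152 and 119 CPM in control cells (log2 fold change 0.50, interval -0.10 to 1.10). CMPK1, which phosphorylates pyrimidine monophosphates, had 48.9 and 56.7 CPM in KO cells and 45.0 and 26.2 CPM in control cells. RRM2B, the p53-induced subunit of ribonucleotide reductase, had 78.3 and 69.4 CPM in KO cells and 96.0 and 122 CPM in control cells (log2 fold change -0.56, interval -1.18 to 0.05). NME2, a nucleoside diphosphate kinase whose reads may be shared with its near copy NME1, had a log2 fold change of 0.18.

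Adenosine is made outside the cell, acts on its receptors and is then removed through SLC29A1. All 12 adenosine genes found in the files were tested, of 13 listed, with 1 (8.33%, beside 15.8% of all genes) higher and 3 (25%, beside 16.3%) lower in both KO libraries. DPP4, the surface peptidase that binds adenosine deaminase, had 3.02 and 3.54 CPM in KO cells and 7.44 and 7.76 CPM in control cells (log2 fold change -1.21, interval -2.22 to -0.20). NT5E, the ectonucleotidase CD73 that forms adenosine, had 0.981 and 1.69 CPM in KO cells and 2.75 and 1.97 CPM in control cells. ALPL, the alkaline phosphatase abundant in stem cells, had 284 and 185 CPM in KO cells and 312 and 238 CPM in control cells, and ENTPD6, a nucleoside diphosphatase, had a log2 fold change of 0.41.

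Among 20 regulators and membrane anchors of pumps, 18 were tested, with 3 (16.7%, beside 15.8% of all genes) higher and 4 (22.2%, beside 16.3%) lower in both KO libraries and a median log2 fold change of 0.17. The anchors moesin and ezrin, which tie membrane proteins to actin, lay on opposite sides of 0. MSN had 384 and 510 CPM in KO cells and 324 and 291 CPM in control cells (log2 fold change 0.54, interval -0.06 to 1.15), and EZR had 266 and 298 CPM in KO cells and 330 and 386 CPM in control cells (log2 fold change -0.35, interval -0.92 to 0.23). RXRA, the retinoid receptor that pairs with xenobiotic receptors, had 68.2 and 69.6 CPM in KO cells and 51.4 and 40.1 CPM in control cells (log2 fold change 0.59, interval -0.04 to 1.22). YBX1, a nucleic acid-binding protein described as an activator of ABCB1, had a log2 fold change of 0.30.

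**Figure D5:**
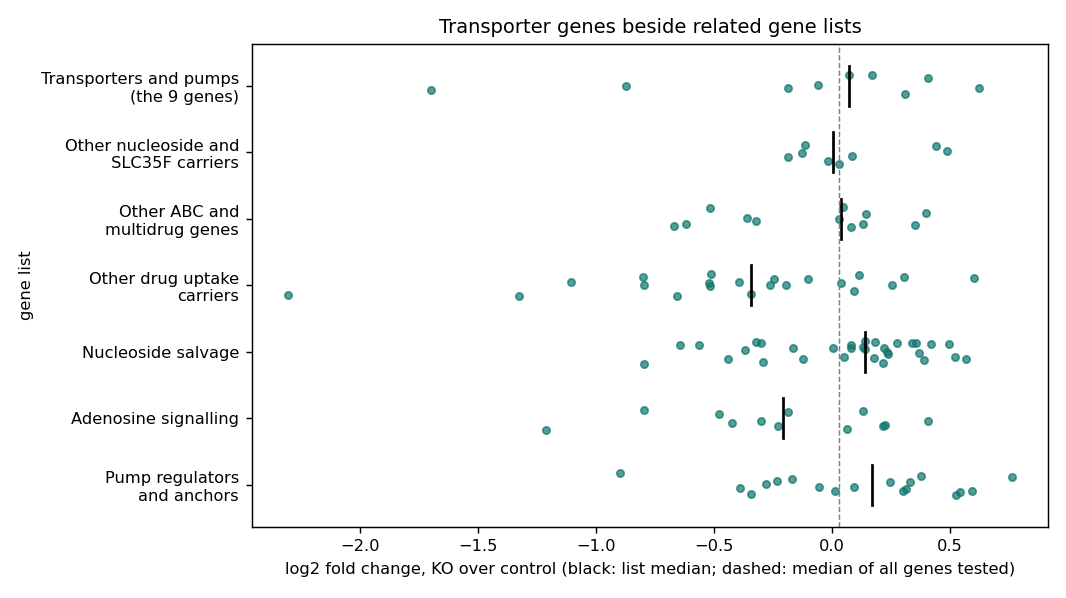
Log2 fold change of KO over control for each tested gene of the 9 carriers and of 6 related lists (points, with vertical scatter added for visibility), with list medians in black and the median of all genes tested dashed. The medians run from -0.34 for other drug uptake carriers to 0.17 for pump regulators, and SLC15A1 at -2.30 and ABCG2 at -1.70 lie lowest.

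Since ABCG2 had the largest fold change of the 9 genes, the tested genes with the nearest pattern over the 4 libraries were identified. Distances used log2 of CPM plus 0.5, centred per gene, over 11569 genes averaging 5 CPM or more. The nearest were SPON1, which encodes an extracellular matrix protein, TRABD2A, which encodes a metalloprotease of the cell surface, and the zinc finger gene ZNF701. Their Euclidean distances were 0.125, 0.160 and 0.175. The added 0.5 shrinks differences of ABCG2, at 0.701 to 3.66 CPM, more than those of the compared genes. The fitted log2 fold change was -1.70 for ABCG2 and -1.30 for SPON1. SPON1 had 5.41 and 3.18 CPM in KO cells and 8.92 and 12.1 CPM in control cells. With 4 libraries such likeness is a description of 4 values, and no test was made.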

How the data were processed

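Per the labels' protocols, Trizol and a column gave total RNA, which went into a stranded mRNA library kit. Per the submitters' processing notes, the tools were HTSeq 0.11.0, STAR 2.6.0a, cutadapt 1.8.1 and FastQC 0.11.7, on build GRCh38 (hg38). Which annotation release and strand setting were used is not given in the sources used here. Overlapping genes may therefore share reads. Raw read counts per gene were deposited. The labels mention quantile normalisation, which whole numbers with unequal totals do not carry, and it was tried as an alternative. Rows that name no gene held 14.4% to 20.3% of the counted alignments per library and were left out. Names, positions and merged exon lengths came from GENCODE 29, which held 56753 of 60483 identifiers.

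Genes were filtered with filterByExpr (minimum count 10), leaving 19027, and scaled with TMM factors. The comparison of KO with control used the robust quasi-likelihood F test of edgeR 4.0.16 in R 4.3.3. Tests were two-sided, and p-values were adjusted over all genes (Benjamini-Hochberg, threshold 0.05). A gene past it is said to be called. Alternatives used RLE factors, library size only, DESeq2 1.42.0, limma-voom and quantile normalisation with limma-trend (limma 3.58.1, log2 of CPM plus 0.5), the legacy edgeR fit, other filters, the replicate block and each library left out.

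Libraries of a group differed by far more than sampling noise (chi-square per degree of freedom 134 between KO libraries and 62.0 between controls). The 9 genes and the 6 related lists were chosen with earlier results of these data known. The text names the 9 genes, SLC35F2 and, from each list, the 3 tested genes with the smallest p and the 2 most abundant per length. Some genes under this rule are not reported here. Genes listed at too few reads, SLC28A1 to SLC28A3 and AL359183.1, TNRC18 and RUNDC3B were named after their values were seen, as were the cell markers quoted.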

Additional observations from a re-analysis of the deposited data

How the results depend on the processing

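The number of carriers called was 0 of 9 under all 13 alternatives. Genes called over the whole series numbered 5 with all libraries and TMM factors, and 0 with library size only, limma-voom and a mean of at least 1 CPM, with 787, 681 and 523 genes under an unadjusted p of 0.05. The count was 60 with DESeq2, 3 with quantile normalisation, 1 with the legacy edgeR fit, 8 with no filter and 76 with the replicate block, and it ranged from 3 without control 2 to 1094 without KO 1. SLC35F2 was called by DESeq2 (log2 fold change -1.63, adjusted p = 0.0236) and with the replicate block (-1.63). Its log2 fold change ranged from -1.92 to -1.31 over the left-out libraries. Same-numbered libraries deviated together (correlation 0.37 across genes), but with 2 pairs and no label on pairing the numbers were not taken as pairs. In the fit with the replicate block ABCG2 stood at -1.70 (edgeR adjusted p = 0.298) and SLC29A2 at 0.66 (0.522).

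Signs turned as follows, with causes not tested. With library size only they turned for ABCC5 (-0.044), SLC25A36 (-0.097), ABCA3 (-0.029) and SLC19A2 (-0.0016), and with quantile normalisation for ABCC5 (-0.069), SLC25A36 (-0.079) and SLC35F3 (0.033). With a mean of at least 1 CPM SLC25A36 turned (-0.013). Over the left-out libraries the log2 fold changes ranged from -0.24 to 0.16 for SLC29A3, -0.49 to 0.96 for SLC29A4, -2.93 to 0.046 for ABCB1, -0.14 to 0.44 for ABCC1, -0.41 to 0.016 for ABCC4 and -0.31 to 0.38 for ABCC5. They ranged from -0.48 to 0.19 for SLC25A33, -0.11 to 0.16 for SLC25A36, -0.50 to 0.059 for SLC35F3, -0.30 to 0.77 for ABCA3, -0.076 to 0.30 for SLC19A2, -0.13 to 0.58 for NME2 and -0.56 to 0.049 for ALPL. Depth limits ABCB1 and ABCG2, where 3 reads correspond to 0.0794 to 0.109 CPM.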
